A study of Homo sapiens with 12 samples.

Results

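The insulin and insulin-like growth factor (IGF) receptors, their adaptors and the subunits of the lipid kinase PI3K were followed in RNA sequencing of xenograft tumours of the human line MCFDCIS, a breast line whose tumours resemble ductal carcinoma in situ. The 10 genes were chosen by name for their place in the pathway: INSR, IGF1R, IRS1, IRS2, PIK3CA, PIK3CB, PIK3R1, PIK3R2, PIK3R3 and PIK3IP1. They are 10 of the 58243 human gene identifiers in the count files, and 9 of them were among the 18628 human genes with enough counts to be tested. PIK3R2 was not tested.

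The 12 tumours fell into 4 groups of 3. The palbociclib recovery tumours had received palbociclib daily for 2 weeks, at 50 mg per kg by oral gavage, and were collected after a recovery period whose length the sources used here do not state. The palbociclib initial tumours were collected after the same 2 weeks of drug. The vehicle recovery and vehicle initial tumours received vehicle on the same schedules. All 12 were grown under the skin of athymic nude mice, which lack mature T cells and keep other immune cells, and had 2 weeks to establish before dosing, so all describe 1 human line without T cells in the host. The sources used here do not state the age and sex of the mice.

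Insulin and the IGFs bind receptor tyrosine kinases, which phosphorylate the adaptor proteins IRS1 and IRS2. The adaptors recruit PI3K, made of a catalytic subunit that phosphorylates a membrane lipid and a regulatory subunit that holds and restrains it, and the lipid product activates AKT and mTOR. Palbociclib inhibits the cell cycle kinases CDK4 and CDK6, whose D-type cyclin partners are induced through this pathway in breast epithelium.

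Counts on human genes ranged from 6613880 to 12352064 per tumour, and mouse genes took 14.2% to 25.4% of gene counts. All 9 tumour cell markers were present in every tumour, for example KRT5 at 976 to 1914 CPM (human counts scaled by library size, with trimmed mean of M-values, TMM, factors), and EPCAM at 123 to 286 CPM. Human copies of host markers were mostly near 0, with ADIPOQ at 0 in 11 tumours, CD68 in 8 and CDH5 in 6. COL3A1 was at 67.4 to 212 CPM. PECAM1 was at 38.8 to 114 CPM. Vehicle initial tumours 2 and 3 stood apart, with 5.32% and 11.2% of human counts on mitochondrial genes against 0.674% to 2.64% in the other 10. They also had the highest shares of counts on rows that name no gene, 61.9% and 69.1%. Vehicle initial tumour 3 had the fewest human counts, 6613880. Vehicle recovery tumour 2 had the lowest TMM factor, 0.859. Vehicle recovery tumour 2 and palbociclib initial tumour 3 each held the highest or the lowest value of the 12 for 5 of the 9 tested genes.

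The genes that passed the test were the adaptor IRS2 and the regulatory subunit PIK3R3, and the 250 bases before their transcription starts are given here because both moved with the drug, in opposite directions. The sequences are from RefSeq on GRCh38.p14, read along each gene's minus strand. IRS2 lies at chr13:109752698-109786568 and PIK3R3 at chr1:46040140-46133036 (GENCODE 29, GRCh38). The IRS2 stretch is chr13:109786584-109786833 and the PIK3R3 stretch chr1:46133037-46133286, which lies before the start that GENCODE 29 gives among the 6 listed by RefSeq. Capitals mark a match to an E2F motif.
IRS2: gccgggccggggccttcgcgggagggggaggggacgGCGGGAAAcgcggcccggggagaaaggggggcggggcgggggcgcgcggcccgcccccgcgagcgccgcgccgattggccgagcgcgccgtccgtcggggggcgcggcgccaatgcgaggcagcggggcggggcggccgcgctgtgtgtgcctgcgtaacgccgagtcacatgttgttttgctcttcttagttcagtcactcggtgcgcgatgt
PIK3R3: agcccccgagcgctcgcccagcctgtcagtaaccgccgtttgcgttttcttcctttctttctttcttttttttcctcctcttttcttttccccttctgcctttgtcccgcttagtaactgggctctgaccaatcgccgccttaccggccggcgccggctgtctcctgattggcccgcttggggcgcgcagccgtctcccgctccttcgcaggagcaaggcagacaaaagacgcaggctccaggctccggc
Motifs were searched on both strands as exact letters: FOXO (GTAAACA), E2F (TTTCCCGC, TTTCGCGC, TTTGCCGC or TTTGGCGC), the cell cycle element CHR (TTTGAA) and the core of the cyclic AMP response element (CRE, TGACG). IRS2 held 1 E2F match, on the opposite strand to the letters above, starting 214 bases before its start, and 2.78% of 34788 RefSeq promoters of that length hold 1 or more. PIK3R3 held no match of the 4 motifs. Among the other 8 genes the one match was a FOXO motif 149 bases before the RefSeq start of PIK3CA, a motif in 2.98% of promoters. That start lies 243 bases after the GENCODE 29 start, so by GENCODE 29 the match lies inside the gene. CHR stood in 13.3% of all promoters and the CRE core in 21.2%. The G and C share was 76.4% for IRS2 and 60.4% for PIK3R3, against a median of 58% over all promoters.

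Per kilobase of exon, PIK3R1, the main regulatory subunit, was the most abundant of the 10 transcripts in the tumours, with a median of 37.1 CPM per kilobase (range 23.9 to 49.7). PIK3R3, a shorter regulatory subunit, followed at a median of 11.9 CPM per kilobase. The receptors INSR and IGF1R stood at 9.98 and 8.60 CPM per kilobase, and the catalytic subunits PIK3CA and PIK3CB at 7.09 and 5.38. The PI3K inhibitor PIK3IP1 had a median of 4.55 CPM per kilobase, IRS2 one of 4.25, and IRS1 one of 2.16. Only PIK3R1 and PIK3R3, and IRS1 and PIK3R2, were neighbours in this order whose ranges over the 12 tumours did not overlap. IRS2, at 1.56 to 7.52 CPM per kilobase, had the largest ratio of highest to lowest value among the 9 tested genes, 4.83-fold.

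**Figure D1:**
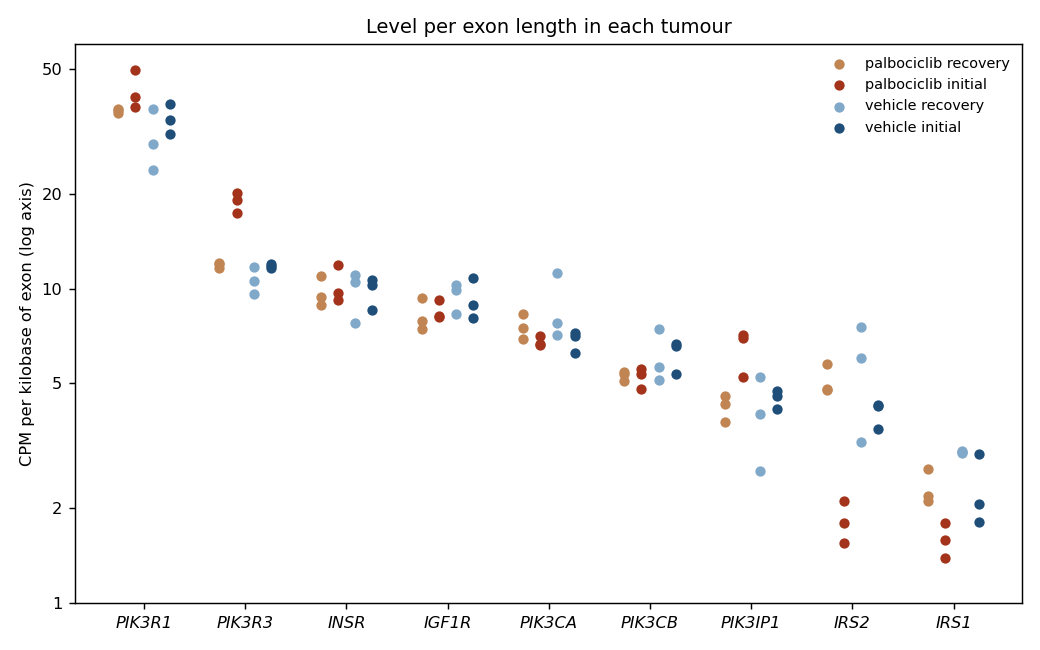
Level of the 9 tested genes in each of the 12 tumours, in CPM per kilobase of exon on a log axis, ordered by median, with 1 point per tumour coloured by group. PIK3R1 (23.9 to 49.7 CPM per kilobase) lies above all the other genes, and IRS2 in the palbociclib initial tumours lies among the values of IRS1.

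PIK3R2, a regulatory subunit, collected 20 counts in the 12 tumours together, 0 to 7 in each. Of its 4524 exon bases, 3947 are shared with the same-strand gene AC007192.1, which collected 6 counts, and the part of this overlap in the low count was not tested. PIK3R3 shares 1292 of its 7410 exon bases with AL358075.4, which collected 0 counts. PIK3CA shares 3403 of 9494 exon bases with the antisense gene KCNMB3, whose counts came to 8.27% of those of PIK3CA. The sources used here do not state whether counting used strand, so reads of that pair cannot be told apart.

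The first comparison asked what 2 weeks of palbociclib did to these genes. IRS2, the adaptor that links activated receptors to PI3K, was lower in the palbociclib initial tumours, at 0.453-fold of the vehicle initial level. PIK3R3 was higher, at 1.60-fold. The receptors, the other adaptor, both catalytic subunits, PIK3R1 and PIK3IP1 did not pass the test. By the quasi-likelihood test of edgeR, with Benjamini-Hochberg adjusted p under 0.05, 1 of the 9 genes passed higher and 1 lower, where 0.14% of all human genes passed higher and 1.7% lower (1.84% in either direction, 343 genes). The groups did not overlap for 4 of the 9, against 20.7% of all genes. The median log2 fold change was -0.013 over the 9 genes and 0.0014 over all genes. In bulk tumours, fewer cells of a type and less RNA per cell cannot be told apart.

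**Figure D2:**
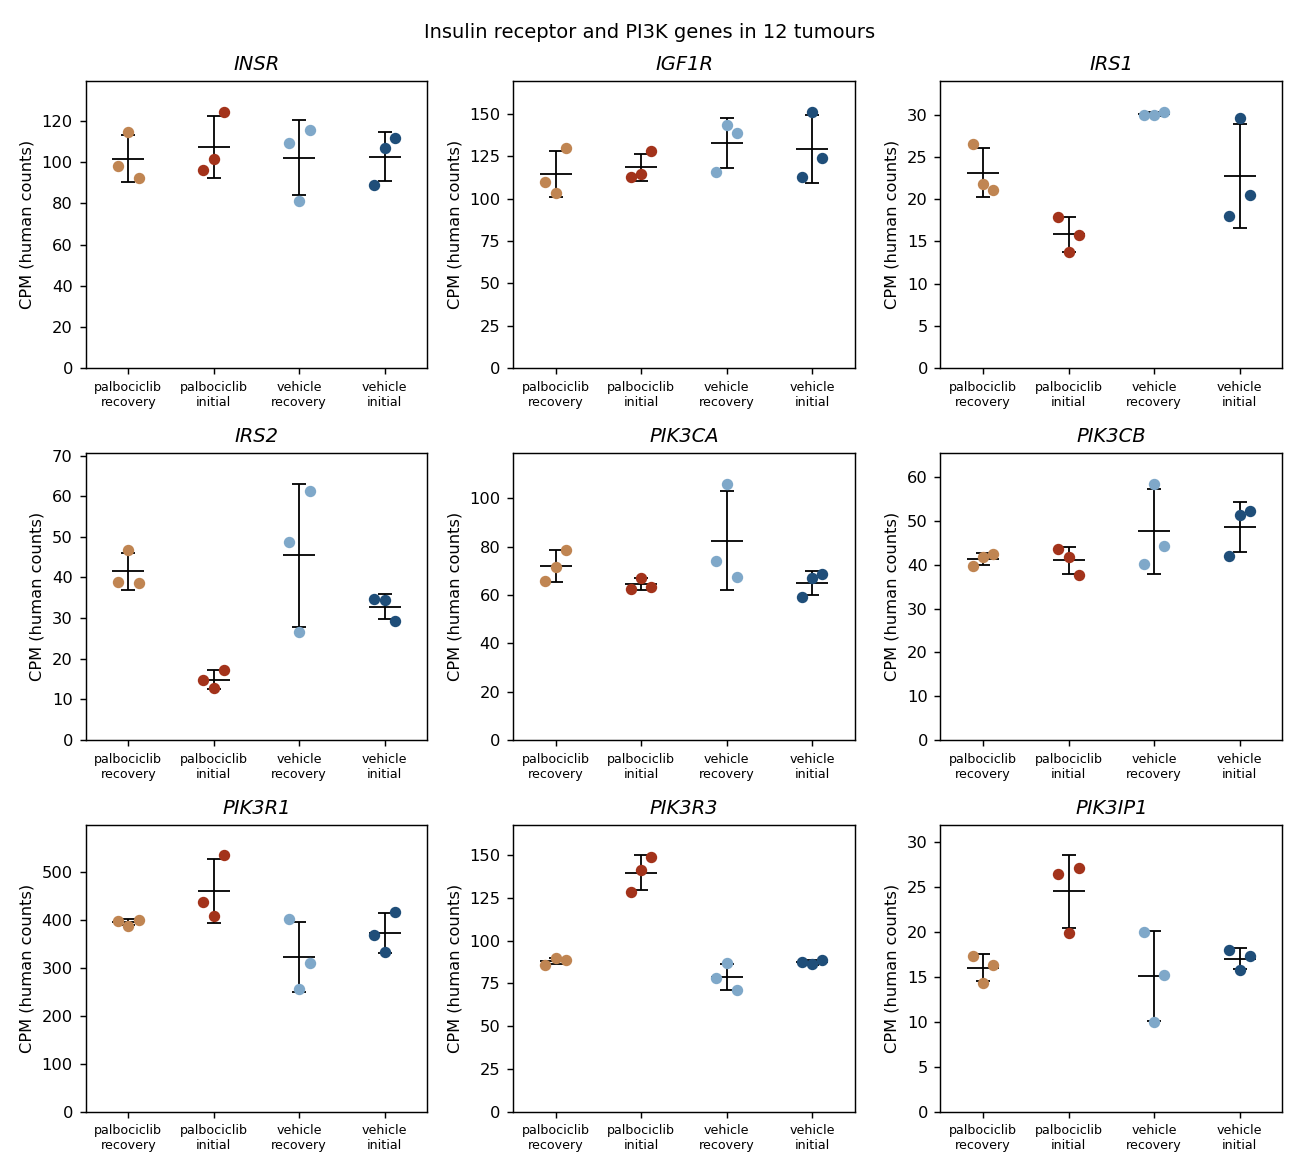
CPM of the 9 tested genes in each tumour, with the group mean and SD as bars (n = 3 per group), groups from left to right palbociclib recovery, palbociclib initial, vehicle recovery and vehicle initial. IRS2 in the palbociclib initial tumours (12.7 to 17.2 CPM) lies below all 9 other tumours, and PIK3R3 (129 to 149 CPM) above all 9.

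IRS2 (ENSG00000185950) had 14.6, 12.7 and 17.2 CPM in the palbociclib initial tumours, against 34.6, 34.5 and 29.2 CPM in the vehicle initial tumours. All 3 drug-treated values were below all 3 vehicle values. The means were 14.8 ± 2.29 and 32.8 ± 3.13 CPM (SD, n = 3 each), and the log2 fold change was -1.14 with an SE of 0.24 (edgeR adjusted p = 0.027). The IRS2 call was lost when any 1 of the palbociclib initial tumours, or vehicle initial tumour 1 or 2, was left out, with edgeR adjusted p from 0.064 to 0.13, while the log2 fold change stayed between -1.26 and -1.04 in the 12 fits without 1 tumour. With the mouse share of counts as a covariate it was -1.28 (edgeR adjusted p = 0.0768). Without both tumours of high mitochondrial share it was -1.22 (edgeR adjusted p = 0.291), a fit with 1 vehicle initial tumour, assumed to vary like the others.

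PIK3R3 (ENSG00000117461) had 129, 141 and 149 CPM in the palbociclib initial tumours, against 87.4, 86.1 and 88.8 CPM in the vehicle initial tumours. The drug-treated values were all higher, and the vehicle values lay within 2.7 CPM of each other. The log2 fold change was 0.68 ± 0.10 (SE, edgeR adjusted p = 0.00219), and it passed in each of the 12 fits without 1 tumour. Without both tumours of high mitochondrial share it was still 0.68, with an edgeR adjusted p = 0.164. The ratio of PIK3R1 to PIK3R3 per kilobase was 2.27 ± 0.254 in the palbociclib initial tumours and 2.93 ± 0.281 in the vehicle initial tumours (SD, n = 3 each). It was 3.09 ± 0.101 in the palbociclib recovery tumours and 2.85 ± 0.755 in the vehicle recovery tumours. The vehicle recovery values, 2.04 to 3.53, overlapped those of the palbociclib initial tumours, 1.98 to 2.47.

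Marker sums and the mouse share were also read for this comparison, with all marker counts on human genes. The 3 endothelial markers summed to 66.0 to 114 CPM in the palbociclib initial tumours and 44.3 to 63.6 CPM in the vehicle initial tumours. Nearly all of this was PECAM1, as CDH5 reached at most 0.518 CPM and VWF 1.83 CPM in any tumour. Whether the PECAM1 counts came from the tumour cells or from mouse reads was not tested, so this sum does not measure endothelial cells. The 9 tumour cell markers summed to 8239 to 8873 CPM in the palbociclib initial tumours and 6998 to 7723 CPM in the vehicle initial tumours. The 4 fibroblast markers overlapped, at 118 to 211 CPM with palbociclib and 138 to 220.2 CPM with vehicle. The mouse share was 16.95%, 17.6% and 25.4% in the palbociclib initial tumours and 16.5%, 15.5% and 17.4% in the vehicle initial tumours. The part of these in the changes of IRS2 and PIK3R3 was not tested beyond the fits above.

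Of the genes that did not pass, 2 had groups that did not overlap. IRS1 had 17.9, 13.8 and 15.8 CPM in the palbociclib initial tumours, against 18.1, 29.7 and 20.5 CPM in the vehicle initial tumours. The 2 groups were separated by a narrow gap that was lost without TMM scaling (14.4 to 19.01 CPM with palbociclib, 18.7 to 29.6 CPM with vehicle), and the log2 fold change was -0.52 ± 0.18 (SE, edgeR adjusted p = 0.258). The IRS1 change was -0.28 without vehicle initial tumour 2. Without the 3 vehicle tumours whose label numbers lie far from the other 9 (initial 1, recovery 1 and 2) it was -0.66. IRS1 passed in that fit alone among the 22 alternative settings. The fit left the 2 tumours of high mitochondrial share as the vehicle initial group, and 1 vehicle recovery tumour. Without both tumours of high mitochondrial share the IRS1 change was -0.19, a fit with 1 vehicle initial tumour. PIK3IP1, a membrane protein that restrains the catalytic subunit, had 26.5, 19.9 and 27.1 CPM in the palbociclib initial tumours, against 17.97, 15.8 and 17.3 CPM in the vehicle initial tumours. All of the drug-treated values were higher, at 0.52 ± 0.21 on the log2 scale (SE, edgeR adjusted p = 0.386).

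The receptors overlapped between the groups. INSR, the insulin receptor, had 96.1, 102 and 125 CPM in the palbociclib initial tumours and 89.2, 107 and 112 CPM in the vehicle initial tumours. IGF1R, the IGF receptor, had 113, 114 and 128 CPM in the palbociclib initial tumours and 112, 151 and 124 CPM in the vehicle initial tumours. Their log2 fold changes were 0.067 ± 0.15 and -0.13 ± 0.13 (SE, edgeR adjusted p = 0.955 and 0.867).

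PIK3CA, the catalytic subunit most often mutated in breast cancer, had 62.6, 67.1 and 63.2 CPM in the palbociclib initial tumours and 59.3, 67.2 and 68.4 CPM in the vehicle initial tumours, at -0.013 ± 0.15 on the log2 scale (SE, edgeR adjusted p = 0.992). PIK3CB, the other catalytic subunit, had 43.6, 41.9 and 37.6 CPM in the palbociclib initial tumours and 42.0, 51.4 and 52.4 CPM in the vehicle initial tumours, at -0.24 ± 0.14 (SE, edgeR adjusted p = 0.672). The values of each overlapped between the groups. PIK3R1 had 438, 408 and 535 CPM in the palbociclib initial tumours and 369, 333 and 416 CPM in the vehicle initial tumours, at 0.30 ± 0.16 (SE, edgeR adjusted p = 0.587), with the lowest drug-treated value below the highest vehicle value. Without TMM scaling PIK3R1 did not overlap, at 425 to 543 CPM with palbociclib and 333 to 399 CPM with vehicle.

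The second comparison asked what remained after the recovery period. None of the 9 genes passed, by edgeR or by DESeq2, and 1 (IRS1) had an unadjusted p under 0.05. Of all human genes 1 passed, 0.00537%. The median log2 fold change was -0.13 over the 9 genes and -0.0019 over all genes. The groups did not overlap for 1 gene, IRS1, against 11.8% of all genes.

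IRS2 had 38.9, 46.8 and 38.7 CPM in the palbociclib recovery tumours, against 48.9, 26.5 and 61.2 CPM in the vehicle recovery tumours, which spread on both sides of the drug-treated values. The log2 fold change was -0.13 ± 0.23 (SE, edgeR adjusted p = 0.849). PIK3R3 had 86.1, 89.6 and 88.7 CPM in the palbociclib recovery tumours, against 78.4, 86.7 and 71.2 CPM in the vehicle recovery tumours, at 0.16 ± 0.10 (SE, edgeR adjusted p = 0.606). The highest vehicle value of PIK3R3 lay among the drug-treated values, but without TMM scaling the groups did not overlap, at 84.8 to 92.0 CPM with palbociclib and 71.7 to 79.4 CPM with vehicle.

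IRS1 had 26.5, 21.8 and 21.1 CPM in the palbociclib recovery tumours, against 29.9, 30.0 and 30.3 CPM in the vehicle recovery tumours. The vehicle values were all above the drug-treated ones, at -0.38 ± 0.17 (SE, edgeR adjusted p = 0.573). Without TMM scaling the IRS1 groups overlapped, at 20.2 to 27.7 CPM with palbociclib and 25.8 to 30.6 CPM with vehicle. PIK3R1 had 398, 389 and 401 CPM in the palbociclib recovery tumours, against 402, 257 and 310 CPM in the vehicle recovery tumours, at 0.29 ± 0.16 (SE, edgeR adjusted p = 0.582). The lowest of the PIK3R1 vehicle values was that of vehicle recovery tumour 2, without which the log2 fold change was 0.15, and without vehicle recovery tumour 1 it was 0.48.

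The other 5 genes overlapped between the groups after recovery. PIK3CA had 65.8, 71.4 and 78.8 CPM in the palbociclib recovery tumours, against 74.0, 106 and 67.4 CPM in the vehicle recovery tumours. INSR had 98.2, 115 and 92.5 CPM in the palbociclib recovery tumours, against 109.6, 81.4 and 116 CPM in the vehicle recovery tumours. IGF1R had 109.97, 104 and 129.9 CPM in the palbociclib recovery tumours, against 116, 144 and 138 CPM in the vehicle recovery tumours. The lowest vehicle value of INSR and the highest of PIK3CA were both from vehicle recovery tumour 2. PIK3CB had 39.8, 41.8 and 42.5 CPM in the palbociclib recovery tumours, against 40.1, 58.6 and 44.4 CPM in the vehicle recovery tumours. PIK3IP1 had 17.3, 14.4 and 16.3 CPM in the palbociclib recovery tumours, against 19.98, 9.97 and 15.2 CPM in the vehicle recovery tumours. Log2 fold changes of the 5 ran between -0.21 for IGF1R and 0.087 for PIK3IP1.

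The difference between the drug effects, recovery minus initial, was 1.01 ± 0.33 (log2, SE) for IRS2 and -0.51 ± 0.14 for PIK3R3, with edgeR adjusted p = 0.635 and 0.37. Both had an unadjusted p under 0.05, but none of the 9 genes passed over all genes by edgeR or by DESeq2, where 0.22% of human genes passed by edgeR. The difference was 0.14 ± 0.25 for IRS1 and -0.44 ± 0.30 for PIK3IP1 (-0.67 to -0.17 without 1 tumour), and the other 5 lay between -0.18 for PIK3CA and 0.035 for PIK3CB. With no low count filter the IRS2 difference did pass (1.01, edgeR adjusted p = 0.00616), in a fit that passed 320 of all genes against 41 with the filter. With the filter, a difference between the drug effects on IRS2 or PIK3R3 was not shown.

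The next comparison set recovery against initial within the palbociclib tumours. IRS2 was higher after recovery, at 2.79-fold of its level at the end of treatment, and PIK3R3 was lower, at 0.631-fold. In edgeR's test 1 of the 9 genes passed higher, where 2.36% of all genes did, and 1 passed lower, where 0.467% did (2.82% in either direction). The groups did not overlap for 5 of the 9 genes, against 29% of all genes. This comparison shares the palbociclib initial tumours with the first, so the opposite signs of both genes there are not independent of it.

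IRS2 had 38.9, 46.8 and 38.7 CPM in the palbociclib recovery tumours, against 14.6, 12.7 and 17.2 CPM in the palbociclib initial tumours, with a log2 change of 1.48 ± 0.24 (SE, edgeR adjusted p = 0.00439). PIK3R3 had 86.1, 89.6 and 88.7 CPM in the palbociclib recovery tumours, against 129, 141 and 149 CPM in the palbociclib initial tumours, at -0.66 ± 0.10 (SE, edgeR adjusted p = 0.0024). Neither gene overlapped between the groups, and both passed in all 22 alternative settings. IRS1 was at 0.55 ± 0.18 and PIK3IP1 at -0.61 ± 0.21 (SE, edgeR adjusted p = 0.152 and 0.169), both without overlap. Both passed with only the compared groups in the fit (edgeR adjusted p = 0.0264 for IRS1 and 0.0177 for PIK3IP1). PIK3IP1 also passed without vehicle recovery tumour 2 (edgeR adjusted p = 0.0131). PIK3R1 was at -0.22 ± 0.16, also without overlap, and the other 4 genes lay between -0.078 for INSR and 0.16 for PIK3CA.

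**Figure D3:**
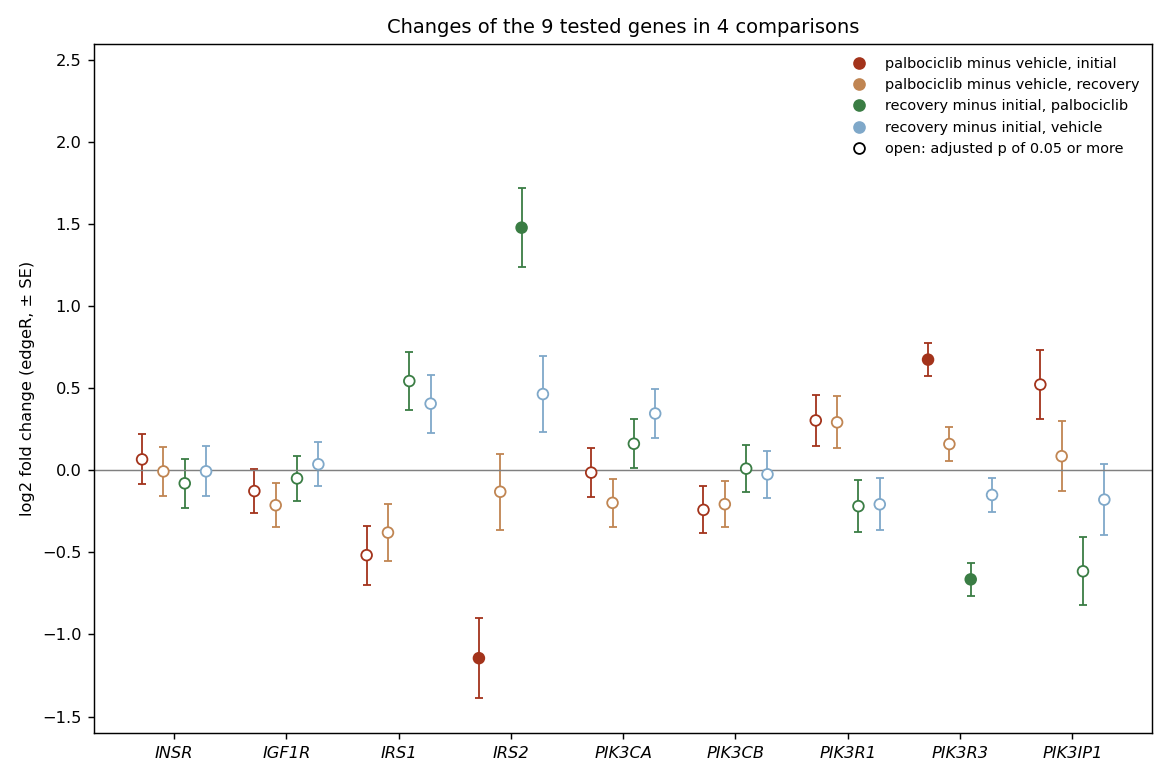
Log2 fold change from edgeR with its SE for the 9 tested genes in 4 comparisons, filled where the adjusted p is under 0.05. IRS2 (-1.14 and 1.48) and PIK3R3 (0.68 and -0.66) are filled in palbociclib against vehicle at the initial stage and in recovery against initial within palbociclib, and no gene is filled in the other 2 comparisons.

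The last comparison set recovery against initial within the vehicle tumours. None of the 9 genes passed by edgeR or by DESeq2, as 0% of all genes passed by edgeR (0 genes, with 2688 at an unadjusted p under 0.05, and 81 by DESeq2). IRS1 and PIK3CA had an unadjusted p under 0.05. The groups did not overlap for IRS1 alone, against 14.7% of all genes. IRS1 had 29.9, 30.0 and 30.3 CPM in the vehicle recovery tumours, against 18.1, 29.7 and 20.5 CPM in the vehicle initial tumours, at 0.41 ± 0.18 (SE, edgeR adjusted p = 0.332). Without TMM scaling IRS1 overlapped (25.8 to 30.6 CPM in recovery, 18.7 to 29.6 CPM in initial tumours), while PIK3CA and PIK3R3 did not. IRS2 was at 0.47 ± 0.23 and PIK3CA at 0.35 ± 0.15 (SE, edgeR adjusted p = 0.367 and 0.331), PIK3R3 at -0.15 ± 0.10 and PIK3IP1 at -0.18 ± 0.21. Leaving out 1 tumour gave 0.21 to 0.74 for IRS2 and 0.13 to 0.49 for PIK3CA. Without the 3 vehicle tumours numbered apart, PIK3CA was at -0.0051, a fit with 1 vehicle recovery tumour, assumed to vary like the others.

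The 3 genes whose log2 CPM followed IRS2 most closely over the 12 tumours, among 15038 genes, were MYO1D (Pearson r = 0.975), MAFF (0.96) and FZR1 (0.955). Those closest to PIK3R3 were BTG2 (r = 0.976), TANK (0.958) and TFDP2 (0.942). The 12 points share their groups, so such a correlation largely follows the group means and is given as a description. BTG2, an antiproliferative gene, averaged 137 ± 13.6 CPM in the palbociclib initial tumours and 66.1 ± 5.31 CPM in the vehicle initial tumours (SD, n = 3 each). MAFF, a small MAF transcription factor, averaged 19.4 ± 3.85 CPM in the palbociclib initial tumours and 36.0 ± 1.92 CPM in the vehicle initial tumours (SD, n = 3 each).

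The rest of the pathway was read from 6 lists of 88 genes, of which 78 were tested: hormones and binding proteins, receptors and adaptors, other PI3K family members, lipid and AKT phosphatases, AKT and mTOR regulators, and FOXO-linked genes. At the end of treatment none of the 78 passed by edgeR, 11 had an unadjusted p under 0.05 (14.1%, against 9.87% of all genes), and DESeq2 called 2. After recovery none passed by edgeR or DESeq2, with 15 at an unadjusted p under 0.05 (19.2%, against 8.66% of all genes). At the end of treatment the median log2 fold change of the 78 was 0.015, and the list medians ran from -0.31 for the 6 tested hormone and binding protein genes to 0.16 for the 9 phosphatase genes.

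Between palbociclib recovery and palbociclib initial tumours, 2 of the 78 passed higher and 0 lower, 2.56% of the list against 2.82% of all genes. IGFBP3, a secreted protein that binds IGFs, had 119, 193 and 123 CPM in the palbociclib recovery tumours, against 31.8, 35.5 and 65.5 CPM in the palbociclib initial tumours, at 1.71 ± 0.39 (SE, edgeR adjusted p = 0.0408). GRB10, an adaptor that inhibits the insulin and IGF receptors, had 70.1, 81.0 and 88.3 CPM in the palbociclib recovery tumours, against 56.6, 57.7 and 56.6 CPM in the palbociclib initial tumours, at 0.49 ± 0.11 (SE, edgeR adjusted p = 0.0348). Neither gene overlapped between these groups, as 29% of all genes did not. Both also had higher values in every vehicle recovery tumour than in any vehicle initial tumour, though neither passed there. IGFBP3 had 276, 288 and 323 CPM in the vehicle recovery tumours, against 73.8, 224 and 142 CPM in the vehicle initial tumours, at 1.02 ± 0.37 (SE, edgeR adjusted p = 0.326). GRB10 had 80.96, 75.7 and 85.3 CPM in the vehicle recovery tumours, against 55.99, 69.2 and 61.8 CPM in the vehicle initial tumours, at 0.37 ± 0.11 (SE, edgeR adjusted p = 0.304). The difference between the drug effects was 0.69 ± 0.53 for IGFBP3 and 0.11 ± 0.16 for GRB10 (SE, edgeR adjusted p = 0.947 and 0.953). At the end of treatment IGFBP3 was at -1.72 ± 0.39 against vehicle, without overlap and short of the threshold (SE, edgeR adjusted p = 0.0515). IGFBP3 passed in 11 and GRB10 in 13 of the 22 alternative settings, and both lost the call without palbociclib initial tumour 1 or 2, palbociclib recovery tumour 2 or 3, or vehicle initial tumour 3. IGFBP3 also lost it without palbociclib recovery tumour 1 or any 1 vehicle recovery tumour, and GRB10 without palbociclib initial tumour 3.

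**Figure D4:**
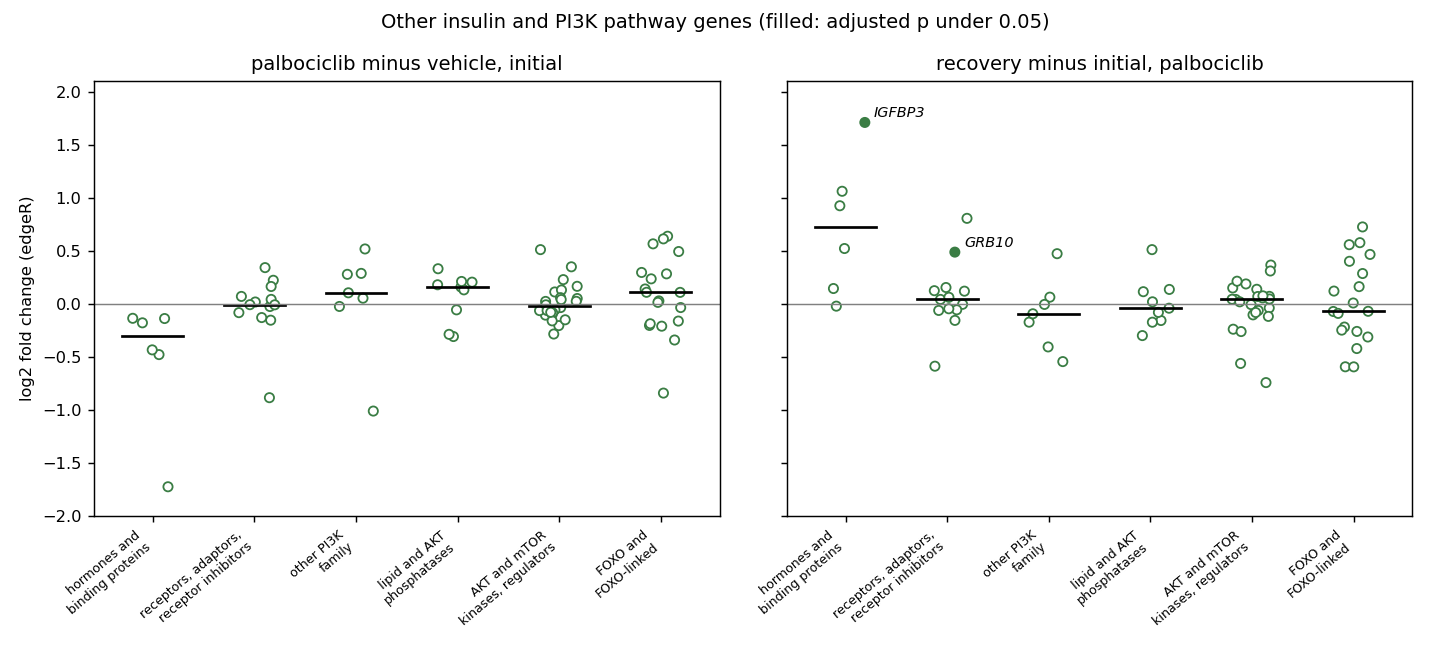
Log2 fold change from edgeR of the 78 tested genes of 6 pathway lists, palbociclib minus vehicle at the initial stage (left) and recovery minus initial within palbociclib (right), with 1 point per gene, a bar at each list's median and filled points at an adjusted p under 0.05. Only IGFBP3 (1.71) and GRB10 (0.49) are filled, both in the right panel.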

How the data were processed

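RNA was measured in 12 tumours. The authors deposited raw counts per Ensembl gene, human and mouse in 1 file per tumour. Per the submitters' processing notes, the tools were CASAVA 1.8, cutadapt, STAR and edgeR, and the builds GRCh38 and GRCm38. The counting program, its strand setting and the handling of reads that match both species are not stated in the sources used here. The 4 rows per file that name no gene held 37.0% to 69.1% of counts and were left out. Symbols came from GENCODE 29 (57980 of 58243 human identifiers).

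Human counts were analysed in R 4.3.3 with edgeR 4.0.16: TMM scaling, filterByExpr defaults (minimum count 10), 1 robust quasi-likelihood fit of 4 group means over 12 tumours, Benjamini-Hochberg adjustment over 18628 genes and a threshold of 0.05. Standard errors were the log2 change divided by the root of F. DESeq2 1.42.0 and limma 3.58.1 (voom) were alternatives. The steps were tested on simulated data. Groups followed the labels. No label states that tumours came from separate mice, so p-values reflect only the spread among these tumours, some of which may share a mouse. The 10 genes and the pathway lists were chosen with earlier results of these data known. Named pathway genes were those that passed in any comparison, up to 4 per list and comparison, and for each of IRS2 and PIK3R3 the 3 genes with the highest Pearson correlation (log2 of CPM plus 0.5, mean of at least 1). The sestrins in the last section are outside this rule and were named after their values were seen.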

Additional observations from a re-analysis of the deposited data

How the results depend on the processing

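No paired analysis was made, because nothing in the labels links a tumour of 1 group to a tumour of another. Over 22 alternative settings, 832 values of single genes were compared: 761 kept their direction and side of the threshold, 30 lost their call, 7 gained one and 34 changed sign. Of 40 group means, 2 moved by more than 1 SD in CPM without TMM scaling. PIK3R2 had too few counts to be tested. In the values below the causes were not tested.

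Changes of sign were all in values that did not pass. At the initial stage, without both tumours of high mitochondrial share, IGF1R was at 0.073 and PIK3CA at 0.12. INSR was at -0.064 with the mouse share added and -0.019 without the 3 vehicle tumours numbered apart, and PIK3CA at 0.0032 with no filter. After recovery INSR was at 0.0053 by voom, 0.0059 with no filter, 0.0020 with only the groups compared and 0.027 with the stricter filter, and PIK3CA at 0.10 without those 3 tumours. For recovery against initial, PIK3CA in vehicle was at -0.0051 without those 3, and PIK3CB in palbociclib at -0.019 with the stricter filter. The IRS1 difference was -0.19 without both tumours of high mitochondrial share.

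Leaving out 1 tumour at a time gave, at the initial stage, -0.21 to 0.0040 for IGF1R, -0.046 to 0.14 for INSR and -0.073 to 0.029 for PIK3CA. After recovery it gave -0.14 to 0.085 for INSR, -0.40 to 0.13 for IRS2, -0.33 to 0.026 for PIK3CA and -0.14 to 0.36 for PIK3IP1. In recovery against initial within palbociclib it gave -0.15 to 0.019 for IGF1R, -0.17 to 0.043 for INSR and -0.046 to 0.056 for PIK3CB, and within vehicle -0.44 to 0.055 for PIK3IP1. The IRS1 difference ran from -0.10 to 0.28.

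Of the 9 genes, 1 passed at the initial stage by voom, with the stricter filter and with the mouse share added, 0 without both tumours of high mitochondrial share, and 1 to 2 without 1 tumour. IRS2 and PIK3R3 were the 2 calls of the main fit, and IRS2 was lost in 9 of 22 settings. IRS1 was gained in 1 of the 22, the fit without the 3 vehicle tumours numbered apart. That fit held 1 vehicle recovery tumour. Within palbociclib, 4 passed (IRS1, IRS2, PIK3R3 and PIK3IP1) with only the groups compared and without those 3 tumours, and 1 (IRS2) passed in the difference with no filter.

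Counts over all genes moved more. At the initial stage 147 passed with the mouse share, 753 with no filter, 689 with only the groups compared, 971 without those 3 tumours, 95 without both tumours of high mitochondrial share and 160 to 748 without 1 tumour. After recovery 18 passed by DESeq2, 794 with no filter, 0 by voom, with the mouse share, with only the groups compared, with the stricter filter or without both tumours, and 0 to 3 without 1 tumour. For the difference the counts were 91 by DESeq2, 320 with no filter, 4 without both tumours and 12 to 161 without 1 tumour. Within palbociclib they were 1147 with no filter, 1616 with only the groups compared, 1552 without those 3 tumours, 339 without both tumours and 205 to 1425 without 1 tumour. Within vehicle they were 81 by DESeq2, 1 with RLE scaling, 1124 with no filter, 5 without those 3 tumours and 0 to 6 without 1 tumour.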

Other observations

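The sestrins, stress-induced inhibitors of mTOR signalling held in the FOXO-linked list, are named here after their values were seen. SESN1 averaged 69.4 ± 3.72 CPM in the palbociclib initial tumours and 44.6 ± 1.87 CPM in the vehicle initial tumours (SD, n = 3 each), at 0.64 ± 0.15 on the log2 scale (SE, edgeR adjusted p = 0.0515). SESN2 averaged 17.1 ± 1.84 CPM in the palbociclib initial tumours and 11.6 ± 0.426 CPM in the vehicle initial tumours (edgeR adjusted p = 0.13). SESN3 averaged 303 ± 15.9 CPM with palbociclib and 198 ± 24.3 CPM with vehicle (edgeR adjusted p = 0.185). None passed the test, and the groups did not overlap for any of the 3. Of the 19 tested genes of the list, 5 were higher without overlap, the 3 sestrins among them, against 9.39% of all genes. A further 1 was lower without overlap, against 11.3% of all genes (20.7% in either direction). Log2 fold changes of the 19 ran from -0.84 to 0.64 with a median of 0.11.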
